A study of Homo sapiens with 16 samples.

Results

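The NRF2 antioxidant genes examined here are 9 genes of the cell's defence against oxidants and electrophiles: NFE2L2, KEAP1, TXNRD1, TXN, SRXN1, GCLC, GCLM, NQO1 and HMOX1. They were taken by name, as every array probe whose platform annotation carries 1 of these symbols (a rule that reads names only). The rule found 13 probes among the 24526 on the array, for 9 of the 16922 genes that have a named probe. Of the 9 genes, 6 have 1 probe and 3 (KEAP1, NQO1 and TXNRD1) have more.

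NRF2, the protein made from NFE2L2, is a transcription factor that is kept scarce in resting cells. KEAP1 hands it to the CUL3 ubiquitin ligase for degradation, and oxidants or electrophiles that modify cysteines of KEAP1 let NRF2 build up, enter the nucleus and bind antioxidant response elements together with a small MAF protein. Its classical targets make glutathione, reduce thioredoxin, repair peroxiredoxins, detoxify quinones and break down haem.

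Transcripts were measured in C4-2B/Rx2dox cells, a subline of the castration-resistant, LNCaP-derived prostate cancer line C4-2B. The cells carry a lentiviral construct from which doxycycline (Dox) induces a Flag-tagged mouse Runx2 cDNA, while rtTA3 and hygromycin resistance are driven by the Ubi-c promoter, so that Dox-treated and vehicle-treated cells share the construct and are 1 hygromycin-selected population. Cells received 250 ng/ml Dox or vehicle (distilled water) for 24 h (day 1) or 48 h (day 2), with 4 biological replicates in each of the 4 groups and 16 arrays in all, and the comparison asks what 1 or 2 days of induced Runx2 did to the transcripts. No group with Dox but without the construct was analysed here, so an effect of Dox itself and one of Runx2 cannot be told apart.

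The arrays reached a median scanner signal of 125 to 139 in Dox day 1, 119 to 124 in vehicle day 1, 107 to 113 in Dox day 2 and 108 to 111 in vehicle day 2, and the slide of each array is not given in the sources used here. On each array 40.1% to 42.2% of the probes lay above background, which here means a detection p under 0.01, the share of the 664 negative controls with a brighter signal. All 7 luminal prostate markers with a named probe (KLK3, KLK2, FOLH1, TMPRSS2, HOXB13, KRT8 and KRT18) were above background on all 16 arrays, with a summed scanner signal of 4825 to 6155 in Dox day 1 against 4035 to 4682 in vehicle day 1, and of 4777 to 4892 in Dox day 2 against 4716 to 5314 in vehicle day 2. The 7 markers went both ways in the test described below, where the shares of all genes are given. On day 1, 2 rose and 3 fell (median log2 change -0.30), and on day 2, 3 rose and 3 fell (0.23). Of the markers of stroma, endothelium and blood cells, COL1A2, COL3A1, DCN, LUM, PECAM1, CDH5, KDR, PTPRC, CD3E and CD14 were above background on 0 arrays, COL1A1 on 6, PDGFRB on 13, VWF on 15 and CD68 on 16. Summed over all markers of a kind, the scanner signal was 682 to 801 in Dox day 1 against 665 to 729 in vehicle day 1 and 597 to 640 in Dox day 2 against 644 to 665 in vehicle day 2 for the 6 stromal genes. For the 4 endothelial genes it was 519 to 595 in Dox day 1 against 495 to 522 in vehicle day 1 and 433 to 459 in Dox day 2 against 474 to 502 in vehicle day 2, and for the 4 blood cell genes 591 to 794 in Dox day 1 against 520 to 656 in vehicle day 1 and 577 to 685 in Dox day 2 against 481 to 556 in vehicle day 2. The part of these in the results was not tested. The array's own RUNX2 probes do not check the induction: the brighter one averaged a log2 signal of 4.90 ± 0.38 in Dox day 1 and 4.83 ± 0.25 in vehicle day 1 (SD, n = 4 each), it was above background on 1 of 16 arrays and the other on 0, and whether they can bind the mouse cDNA was not tested. For this subline the study itself reports the induction of Runx2 by western blot and by RT-qPCR.

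With Dox, TXNRD1 fell further than any other member and HMOX1 rose furthest. On day 1 TXNRD1, NFE2L2 and SRXN1 fell and HMOX1 and TXN rose, so that 3 of 9 genes were lower, 2 higher and 4 not past the test. On day 2 NQO1 joined the genes that fell and KEAP1 those that rose, so that 4 of 9 were lower, 3 higher and 2 (GCLC and GCLM) not past it. Each gene stands here by its brightest probe, and a gene passed where limma's p, adjusted by Benjamini-Hochberg over all probes, was under 0.05. Across all 16922 genes the shares were 11.5% lower and 10.7% higher on day 1 and 16.7% lower and 16.6% higher on day 2. Among the 8175 genes above background on all 4 arrays of at least 1 group they were 21.9% lower and 20.4% higher on day 1 and 31.1% lower and 30.0% higher on day 2, and 8 of the 9 members were above background on all 16 arrays, so 9 genes are few to read against these shares. The median log2 change of the 9 genes was -0.14 on day 1, which is the value of GCLC, a probe not above background, and -0.00089 on day 2, the value of GCLM, against -0.0062 and -0.0078 over all genes. The 4 Dox and the 4 vehicle arrays did not overlap for 6 of the 9 genes on day 1 and for 7 on day 2, where 24.8% and 32.1% of all genes separated in this way. Genes below background are part of these last shares, and the share among the 8175 genes above background was not calculated. The arrays measured RNA of whole cultures, in which fewer cells with a transcript and less of it per cell cannot be told apart.

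**Figure D1:**
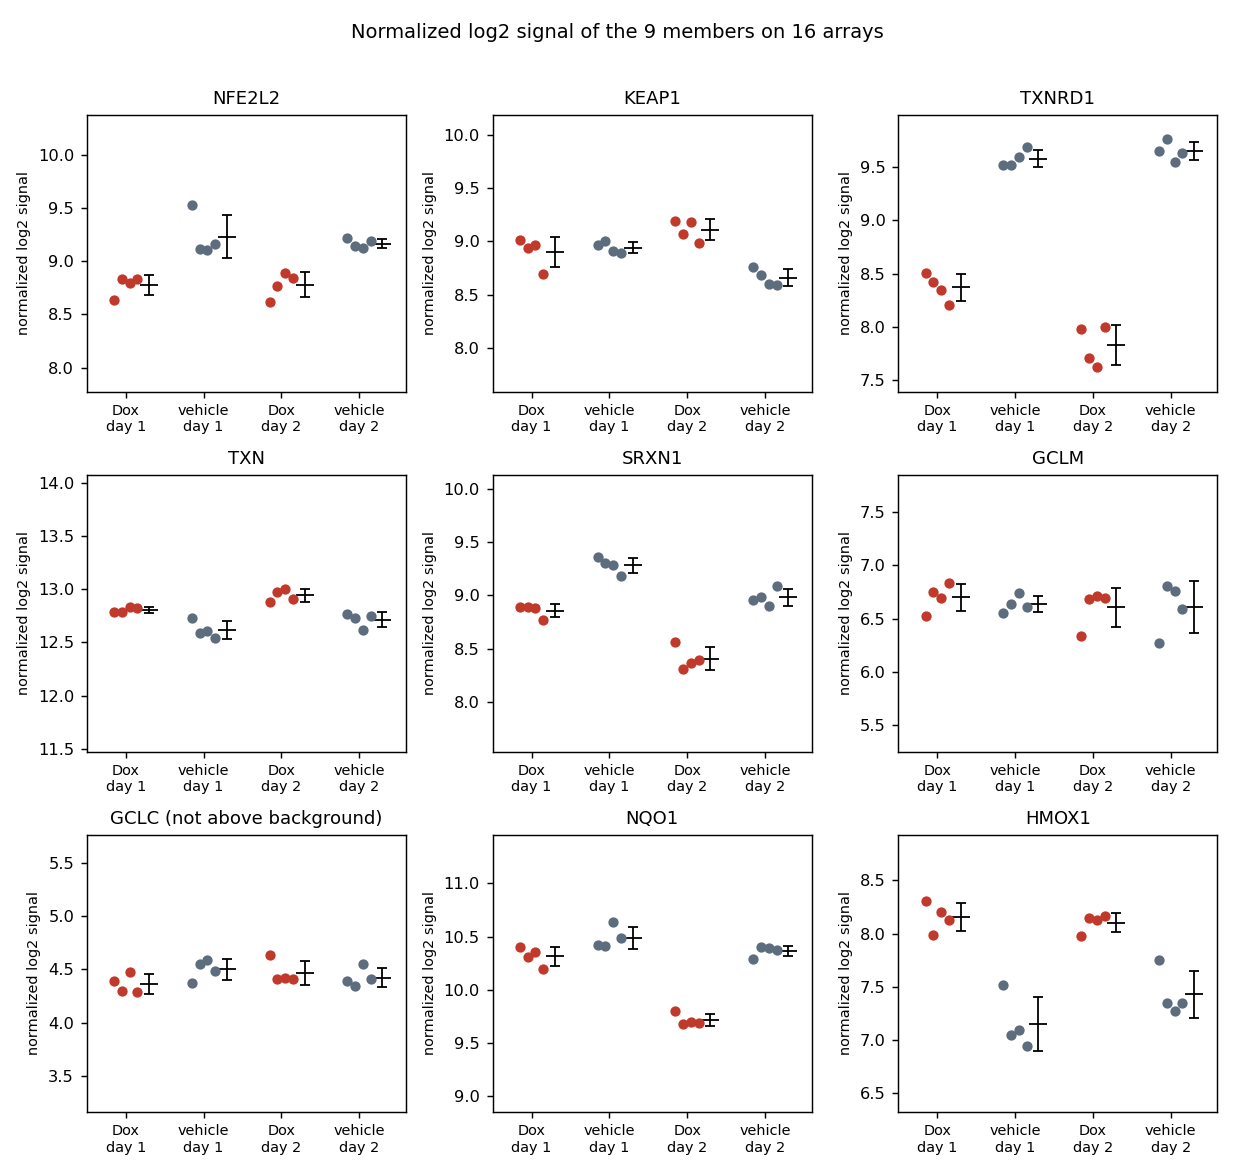
Normalized log2 signal (y axis, the same span in each panel) of the leading probe of the 9 genes in the 4 groups (x axis, 4 arrays each). Points are arrays and the bars give mean ± SD; TXNRD1, SRXN1 and NFE2L2 lie lower in both Dox groups than in their vehicle groups, HMOX1 higher, and GCLC is not above background on any array.

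Promoter sequence from the RefSeq promoter table (GRCh38.p14) was available for 8 of the 9 genes, at 11 annotated transcription starts, and was searched 250 bases upstream of each start, on both strands, for the core of the antioxidant response element (TGACNNNGC), for Runx sites (TGTGGT and TGCGGT) and for a TATA box (TATAAA). The core occurred at 4 of the 11 starts, in 3 genes, and in 10.9% of the 35116 promoters of the table. Both starts of TXNRD1, the gene that fell furthest, hold it, as do 1 of the 2 starts of KEAP1, which rose on day 2, and the start of GCLM, which passed no test. These 4 stretches, the 200 bases before each start, are printed to show the core beside the genes' differing responses; capitals mark the core matches and, in the second TXNRD1 stretch, also a Runx site.
TXNRD1 first start, chr12:104215579-104215778, plus strand: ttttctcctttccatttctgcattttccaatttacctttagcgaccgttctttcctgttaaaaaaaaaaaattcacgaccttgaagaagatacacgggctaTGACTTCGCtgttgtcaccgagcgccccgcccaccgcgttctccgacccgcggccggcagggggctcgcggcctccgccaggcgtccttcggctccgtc
TXNRD1 second start, chr12:104286832-104287031, plus strand: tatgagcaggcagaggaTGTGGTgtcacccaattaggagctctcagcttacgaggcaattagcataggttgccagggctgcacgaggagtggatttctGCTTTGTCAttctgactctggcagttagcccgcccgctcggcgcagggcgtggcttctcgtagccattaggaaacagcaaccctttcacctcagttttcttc
KEAP1, chr19:10502772-10502971, minus strand: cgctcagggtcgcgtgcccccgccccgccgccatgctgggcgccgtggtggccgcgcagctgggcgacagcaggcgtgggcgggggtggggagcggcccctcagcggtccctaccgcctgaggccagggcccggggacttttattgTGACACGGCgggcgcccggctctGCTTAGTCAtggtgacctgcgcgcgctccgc
GCLM, chr1:93909431-93909630, minus strand: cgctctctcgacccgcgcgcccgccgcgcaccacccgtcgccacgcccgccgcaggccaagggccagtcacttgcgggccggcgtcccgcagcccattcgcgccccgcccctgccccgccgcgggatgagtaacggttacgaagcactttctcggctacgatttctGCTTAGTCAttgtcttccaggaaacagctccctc
In the first TXNRD1 stretch the core reads TGACTTCGC, at bases -99 to -91 from the start. In the second it lies on the other strand as GCTTTGTCA, at -102 to -94, with the Runx letters TGTGGT at -183 to -178. KEAP1 holds TGACACGGC at -54 to -46 and, on the other strand, GCTTAGTCA at -31 to -23, and the same 9 letters stand in GCLM at -34 to -26. The Runx letters TGTGGT occurred at 1 of the 11 member starts and in 11% of all promoters, and TGCGGT at 1 start (GCLC, on the other strand, at -177 to -172) and in 5.84%. TATAAA occurred at 2 of the 11 starts (TXN and GCLC) and in 10.7% of all promoters, and no match of 1 motif overlapped a match of another. A match is a run of letters and not a bound site, and the table does not say which start these cells use. No promoter of HMOX1 was available, and sequence further than 250 bases upstream was not searched, so an element there would not be seen.

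Of the 2 genes at the head of the pathway, NFE2L2 was lower with Dox on both days and KEAP1 was higher on day 2. The NFE2L2 probe read 8.63, 8.84, 8.80 and 8.83 log2 units in Dox day 1 (replicates 1 to 4) against 9.53, 9.12, 9.11 and 9.16 in vehicle day 1. On day 2 it read 8.62, 8.76, 8.89 and 8.84 with Dox against 9.22, 9.14, 9.12 and 9.19 with vehicle. All Dox arrays lay below all vehicle arrays of their day, and replicate 1 of vehicle day 1 stood above the other 3. NFE2L2 fell 1.37-fold on day 1 (log2 change -0.46 with a standard error of 0.088, adjusted p = 0.000924) and 1.31-fold on day 2 (log2 change -0.39 with a standard error of 0.088, adjusted p = 0.00204). The change did not differ detectably between the days (difference 0.07, 95% interval -0.20 to 0.33, adjusted p = 0.850).

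KEAP1 has 3 probes, of which 2 were above background on all 16 arrays and 1 (ILMN_1711787) on 0. Its leading probe (ILMN_2410772) read 9.01, 8.94, 8.96 and 8.70 in Dox day 1 against 8.97, 9.0, 8.91 and 8.89 in vehicle day 1, and the groups overlapped. On day 2 it read 9.19, 9.07, 9.18 and 8.99 with Dox against 8.76, 8.69, 8.60 and 8.59 with vehicle, with no overlap. The log2 change was -0.04 on day 1 (95% interval -0.19 to 0.12, adjusted p = 0.823), and on day 2 KEAP1 rose 1.37-fold (log2 change 0.45 with a standard error of 0.073, adjusted p = 8.76e-05). The difference between the days was 0.49 (adjusted p = 0.00394), but it missed the threshold when arrays were scaled to a common median (0.40, adjusted p = 0.0794). Vehicle cultures moved as well: their KEAP1 signal averaged 8.66 ± 0.08 on day 2 and 8.94 ± 0.05 on day 1 (SD, n = 4 each), a change of -0.28 (adjusted p = 0.0179) that lost its call without vehicle day 1 replicate 2 (adjusted p = 0.0545) and without vehicle day 2 replicate 3 (0.0553) or 4 (0.0567). The second probe (ILMN_2410771) rose by less on day 2, with a log2 change of -0.0055 on day 1 (adjusted p = 0.980), 0.28 or 1.21-fold on day 2 (adjusted p = 0.00850) and a difference between the days of 0.28 that did not pass (adjusted p = 0.115). Its Dox day 2 arrays read 8.81, 8.75, 8.59 and 8.64 against 8.42, 8.37, 8.32 and 8.55 in vehicle day 2.

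Thioredoxin reductase, encoded by TXNRD1, is the selenoprotein that uses NADPH to keep thioredoxin reduced, and it gave the largest change of the 9 genes on either day. The leading TXNRD1 probe (ILMN_1717056) read 8.51, 8.42, 8.34 and 8.21 in Dox day 1 against 9.52, 9.52, 9.60 and 9.69 in vehicle day 1. On day 2 it read 7.98, 7.71, 7.62 and 8.0 with Dox against 9.65, 9.76, 9.55 and 9.64 with vehicle. The Dox day 2 arrays lay below the Dox day 1 arrays and both lay below all 8 vehicle arrays. TXNRD1 fell 2.31-fold on day 1 (log2 change -1.21 with a standard error of 0.089, adjusted p = 2.07e-08) and 3.54-fold on day 2 (log2 change -1.82 with a standard error of 0.089, adjusted p = 2.27e-11). Of the 8175 genes above background on all 4 arrays of at least 1 group, 29 had a lower log2 change on day 1 and 119 on day 2. The fall was larger on day 2 by 0.61 log2 units (adjusted p = 0.00293), while in vehicle cultures the gene changed by 0.07 between the days (95% interval -0.12 to 0.26, adjusted p = 0.739).

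The second TXNRD1 probe (ILMN_2324421) was dimmer and fell as well. It read 5.98, 6.32, 6.19 and 6.11 in Dox day 1 against 7.77, 7.52, 7.39 and 7.24 in vehicle day 1, and 6.18, 6.02, 6.27 and 5.99 in Dox day 2 against 7.83, 7.29, 7.44 and 7.71 in vehicle day 2. Its Dox arrays were alike on both days, and none reached a vehicle array. The fall was 2.51-fold on day 1 (log2 change -1.33 with a standard error of 0.12, adjusted p = 3.74e-07) and 2.74-fold on day 2 (log2 change -1.45 with a standard error of 0.12, adjusted p = 3.37e-08), with a difference between the days of -0.13 (95% interval -0.49 to 0.24, adjusted p = 0.788). The size on day 2 depended on the background step: without it the log2 change was -0.82 (adjusted p = 3.87e-10). The day 2 fall of the leading probe exceeded that of the second by 0.37 log2 units, which did not pass an exact two-sided permutation test over the 8 arrays of the day (p = 0.114, where 0.0286 is the smallest that 4 against 4 allow). Over the 16 arrays the 2 probes correlated at r = 0.93. The scanner signals, before any correction, showed the same separation: the leading probe gave 516, 570, 464 and 420 in Dox day 1 against 856, 798, 955 and 951 in vehicle day 1, and 298, 272, 264 and 327 in Dox day 2 against 848, 874, 717 and 754 in vehicle day 2.

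**Figure D2:**
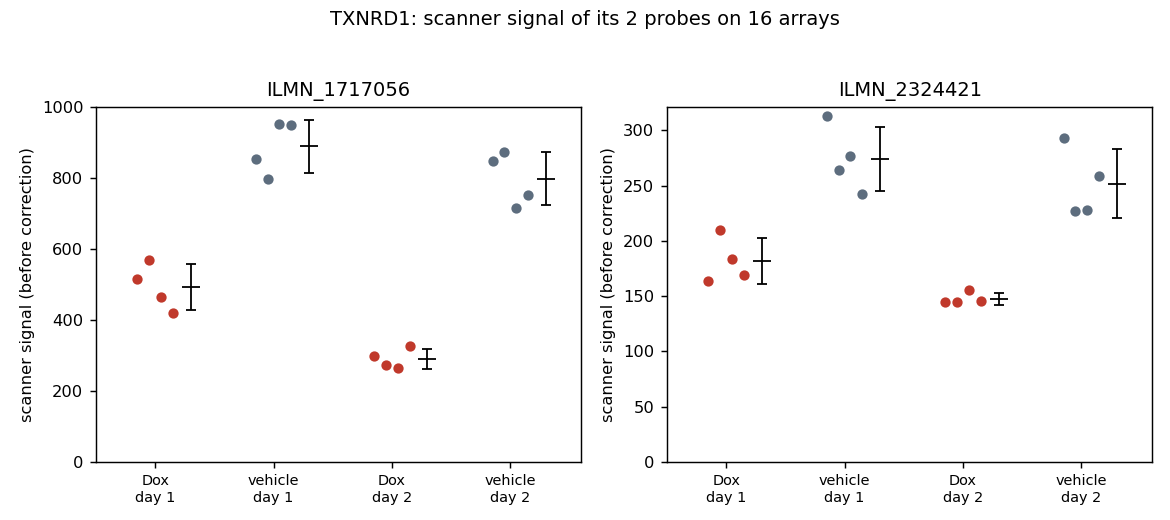
Scanner signal before background correction (y axis, linear, from 0) of the 2 TXNRD1 probes in the 4 groups (x axis, 4 arrays each); points are arrays and bars give mean ± SD. The leading probe (left) gives 420 to 570 in Dox day 1 and 264 to 327 in Dox day 2, below every vehicle array, and the second (right) keeps the same order of Dox below vehicle on both days.

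Thioredoxin itself moved the other way, and only slightly. TXN, the small redox protein that thioredoxin reductase recharges, read 12.79, 12.78, 12.84 and 12.83 in Dox day 1 against 12.73, 12.59, 12.60 and 12.54 in vehicle day 1, and 12.88, 12.98, 13.01 and 12.91 in Dox day 2 against 12.77, 12.73, 12.61 and 12.75 in vehicle day 2. All Dox arrays lay above the vehicle arrays of their day. TXN rose 1.14-fold on day 1 (log2 change 0.19 with a standard error of 0.057, adjusted p = 0.0234) and 1.17-fold on day 2 (log2 change 0.23 with a standard error of 0.057, adjusted p = 0.00455). The day 1 call was lost with the authors' normalized values (adjusted p = 0.0692), in a fit of the 8 arrays alone (0.050, just above the threshold) and without vehicle day 1 replicate 2 (0.0607) or 4 (0.0780) or Dox day 1 replicate 3 (0.0604) or 4 (0.0563). With arrays scaled to a common median both calls were lost (log2 changes of 0.15 and 0.13, adjusted p = 0.145 and 0.203).

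Sulfiredoxin, encoded by SRXN1, returns overoxidized peroxiredoxins to use and fell on both days. SRXN1 read 8.89, 8.89, 8.88 and 8.77 in Dox day 1 against 9.36, 9.30, 9.29 and 9.18 in vehicle day 1. On day 2 it read 8.56, 8.31, 8.37 and 8.40 with Dox against 8.96, 8.98, 8.90 and 9.09 with vehicle. The groups did not overlap on either day, and the fall was 1.34-fold on day 1 (log2 change -0.42 with a standard error of 0.065, adjusted p = 0.000102) and 1.49-fold on day 2 (log2 change -0.58 with a standard error of 0.065, adjusted p = 1.26e-06). SRXN1 was also lower in vehicle cultures on day 2, at 8.98 ± 0.08, than on day 1, at 9.28 ± 0.07 (SD, n = 4 each; log2 change -0.30, adjusted p = 0.00587). The change with Dox did not differ detectably between the days (difference -0.15, 95% interval -0.35 to 0.04, adjusted p = 0.391).

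The 2 subunits of glutamate-cysteine ligase, the enzyme of the first and limiting step of glutathione synthesis, showed no change that passed the test. GCLM, the modifier subunit, read 6.53, 6.75, 6.69 and 6.83 in Dox day 1 against 6.56, 6.63, 6.74 and 6.61 in vehicle day 1, and 6.33, 6.69, 6.71 and 6.69 in Dox day 2 against 6.27, 6.81, 6.76 and 6.59 in vehicle day 2. The groups overlapped on both days. Its log2 change was 0.06 on day 1 (95% interval -0.17 to 0.30, adjusted p = 0.80) and -0.00089 on day 2 (95% interval -0.23 to 0.23, adjusted p = 0.998). The probe for GCLC, the catalytic subunit, was not above background on any of the 16 arrays, and its 16 values ran from 4.28 to 4.64 log2 units. No fold is given for it.

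NQO1, a cytosolic enzyme that reduces quinones and is a standard readout of NRF2 activity, fell on day 2. Its leading probe (ILMN_1720282) read 10.41, 10.31, 10.35 and 10.19 in Dox day 1 against 10.42, 10.42, 10.63 and 10.49 in vehicle day 1, and 9.80, 9.68, 9.70 and 9.68 in Dox day 2 against 10.29, 10.40, 10.39 and 10.38 in vehicle day 2. The 4 Dox arrays lay below the 4 vehicle arrays on both days, narrowly on day 1 and by a wide gap on day 2. NQO1 fell 1.57-fold on day 2 (log2 change -0.65 with a standard error of 0.064, adjusted p = 2.26e-07), and its log2 change on day 1 was -0.17 (standard error 0.064, adjusted p = 0.0684). The difference between the days was -0.47 (adjusted p = 0.00160). The day 1 value passed the threshold with a larger background offset (adjusted p = 0.0294), with no background correction (0.0202), with dim probes left out of the fit (0.0356), in a per-probe two-way analysis of variance with an unmoderated spread (0.0481 for the day 1 contrast) and without Dox day 1 replicate 1 (0.0467). The second NQO1 probe (ILMN_2354953) was not above background on any array, with log2 values of 4.40 to 5.25.

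HMOX1, which encodes haem oxygenase 1 and is a stress-induced NRF2 target, was the member that rose furthest. It read 8.31, 7.99, 8.21 and 8.13 in Dox day 1 against 7.52, 7.05, 7.09 and 6.95 in vehicle day 1. On day 2 it read 7.98, 8.15, 8.13 and 8.16 with Dox against 7.76, 7.35, 7.27 and 7.34 with vehicle. Dox arrays lay above vehicle arrays throughout, and replicate 1 was the highest of both vehicle groups. HMOX1 rose 2.01-fold on day 1 (log2 change 1.01 with a standard error of 0.12, adjusted p = 6.43e-06) and 1.6-fold on day 2 (log2 change 0.67 with a standard error of 0.12, adjusted p = 0.000213), and of the 8175 genes above background 97.2% had a lower change on day 1 and 88.2% on day 2. The difference between the days was -0.33 (95% interval -0.69 to 0.02, adjusted p = 0.283). In vehicle cultures HMOX1 averaged 7.43 ± 0.22 on day 2 and 7.15 ± 0.25 on day 1 (SD, n = 4 each), a change of 0.28 that did not pass (adjusted p = 0.179) but did so without vehicle day 1 replicate 1 (0.40, adjusted p = 0.0233).

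**Figure D3:**
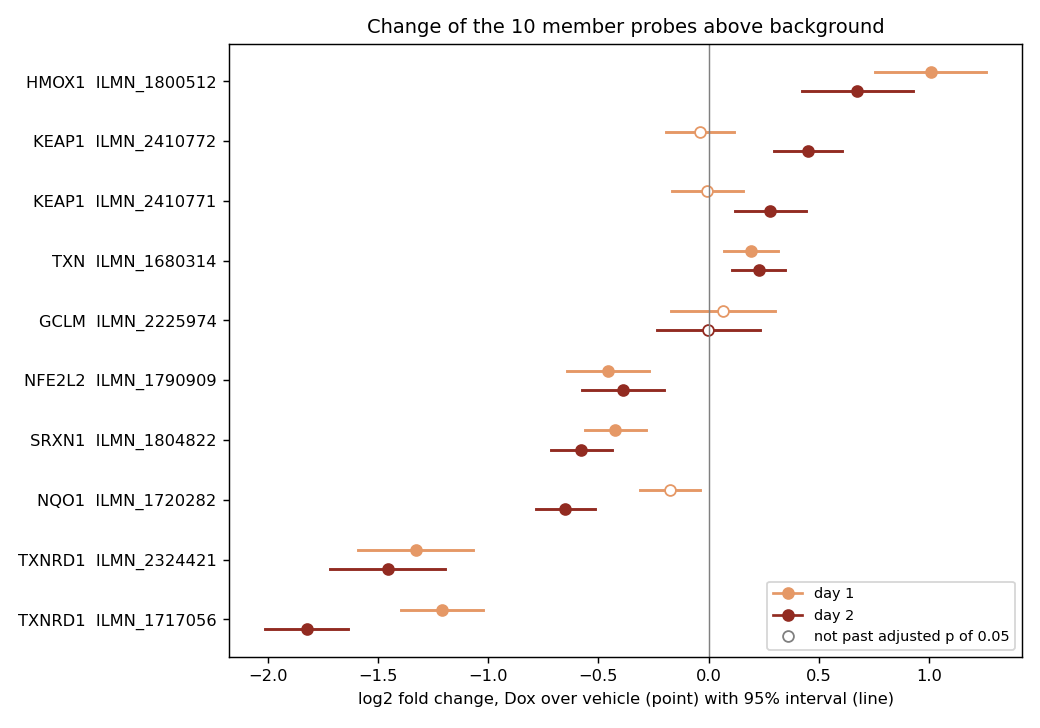
Log2 fold change of Dox over vehicle (x axis) for the 10 member probes above background, on day 1 (light) and day 2 (dark), with 95% intervals; open points did not pass an adjusted p of 0.05. The points run from -1.82 for TXNRD1 on day 2 to 1.01 for HMOX1 on day 1, and KEAP1 and NQO1 moved away from 0 on day 2.

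Across the days, 3 of the 9 genes differed in their response to Dox by their leading probes: KEAP1 was higher and NQO1 and TXNRD1 lower on day 2 than on day 1, where 6.26% of all genes passed this test in the higher and 6.77% in the lower direction. The second detected probes of KEAP1 (0.28, adjusted p = 0.115) and TXNRD1 (-0.13, 0.788) did not pass it. The leading KEAP1 probe missed it with median scaling (0.0794). In vehicle cultures 2 of the 9 (SRXN1 and KEAP1) were lower on day 2 than on day 1 and 0 were higher, against 6.08% lower and 6.33% higher of all genes. These 2 tests share the vehicle arrays, and with no slide given for an array, slide and day cannot be told apart.

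The transcripts that followed each member most closely were sought among 7023 other genes above background on all 16 arrays, by Pearson's r over the 16 arrays, which fall into 4 groups and so carry the effect of Dox. Nearest to TXNRD1 were LRP8, a receptor of the LDL receptor family (r = 0.991), SEPHS1, a selenophosphate synthetase paralog (0.989), and MRGBP (0.988), whose own log2 changes were -1.13, -0.50 and -0.65 on day 1 and -1.96, -0.81 and -1.03 on day 2. Nearest to NQO1 were MCM4, a subunit of the replicative helicase (0.987), NUP188, a nucleoporin (0.984), and HJURP, the chaperone of the centromeric histone (0.980). SRXN1 ran with GINS3, another replication factor (0.978), MRPS2, a mitochondrial ribosomal protein (0.978), and NUP85 (0.975), and NFE2L2 with MRPS35 (0.959), UBE2E3 (0.944) and GRPEL1 (0.942). Of the members that rose, HMOX1 had UBE2H (0.954), SASH1 (0.945) and C1orf115 (0.942) beside it, TXN had BRI3 (0.935), TSPAN9 (0.932) and FTH1P3 (0.926), and KEAP1 had PITX1 (0.895), SLC25A38 (0.881) and ATP6V1D (0.875). GCLM followed COX19 (0.886), JHY (0.856) and GALNT3 (0.847). Among the members themselves, r over the 16 arrays was highest for NQO1 with SRXN1 (0.93) and lowest for TXN with SRXN1 and TXNRD1 (-0.87 each).

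The other genes of the pathway were taken from 8 lists, in which a gene again stands by its brightest probe and may sit in more than 1 list. Their counts stand against 11.5% of all genes lower and 10.7% higher on day 1, and 16.7% and 16.6% on day 2. Among the 8175 genes above background these shares were 21.9% and 20.4% on day 1, and 31.1% and 30.0% on day 2. Each list holds few genes to read against these shares. Genes not above background on any array are part of the counts and medians of the lists that hold them. Of 11 regulators of NRF2 or relatives of it, 2 rose and 2 fell on each day, with a median log2 change of 0.0024 on day 1 and -0.17 on day 2. Only 7 of the 11 were above background on any array, and the day 1 median is the value of CUL3, a probe not above background. NFE2L3, a CNC transcription factor related to NRF2, fell 1.84-fold on day 1 (adjusted p = 1.92e-06) and 2.94-fold on day 2 (4.15e-10), a log2 change of -1.55 that was -0.91 without background correction. MAFG, a small MAF partner of NRF2, fell 1.31-fold on day 1 (0.00944) and on day 2 by at least 1.53-fold (1.14e-06), when it was above background on 0 of 4 Dox and 4 of 4 vehicle arrays. This bound sets the vehicle mean against the lowest signal that counts as above background on each Dox array. Such a bound holds only with the background correction used here. Over 24 alternatives the day 2 log2 change of MAFG ran from -0.99 to -0.32. GSK3B, a kinase that marks NRF2 for a KEAP1-independent route of degradation, rose 1.54-fold (3.51e-06) and 1.45-fold (7.35e-06), and SQSTM1, the autophagy receptor p62 that binds KEAP1, rose 1.39-fold on day 2 (0.000660).

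Of 19 further NRF2 target genes with a probe, 13 were above background on any array. Among the 19, 1 rose and 1 fell on day 1, and 4 rose and 5 fell on day 2, with medians of 0.05 and 0.02. These medians are the values of ABCC2 and AKR1C1, whose probes were not above background on any array, so they do not describe the detected targets. EPHX1, microsomal epoxide hydrolase, rose 2.09-fold on day 1 (adjusted p = 4.84e-07) and 3.10-fold on day 2 (5.26e-10), and FTL, the ferritin light chain, rose 1.6-fold on day 2 (4.71e-06). UGDH, which makes UDP-glucuronic acid, fell 1.34-fold (6.50e-06) and 1.55-fold (1.22e-08). SLC7A11, the cystine importer, was 1.08-fold apart on day 1 (0.706) and 2.23-fold lower with Dox than with vehicle on day 2 (2.37e-06), a log2 change of -1.16 that was -0.56 without background correction. Its mean with Dox was 5.87 on day 1 and 5.81 on day 2, while its vehicle mean was 5.76 and 6.96. On day 2 SLC7A11 was above background on 3 of 4 Dox and 4 of 4 vehicle arrays, so the size of this difference is limited by signal. The 4 aldo-keto reductases AKR1B10, AKR1C1, AKR1C2 and AKR1C3 were not above background on any of the 16 arrays, although AKR1C3 counts among the 4 that rose (log2 change 0.77, adjusted p = 1.96e-08).

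Among 16 genes of the thioredoxin and peroxiredoxin system, 5 rose and 2 fell on day 1 and 4 rose and 5 fell on day 2. SESN2, a sestrin, counts among the 5 (log2 change 0.35, adjusted p = 0.00460) although it was above background on 0 of the 8 arrays of day 1. The 4 glutaredoxins did not all move the same way. GLRX rose 1.90-fold on day 1 (adjusted p = 1.28e-05) and 2.23-fold on day 2 (3.20e-07), whereas GLRX2 fell 1.63-fold (2.86e-05) and 1.57-fold (2.78e-05). GLRX3 fell 1.23-fold (0.00854) and 1.37-fold (0.000131), and GLRX5 had a log2 change of -0.08 on day 1 (0.468) and fell 1.31-fold on day 2 (4.27e-05); these last 2 genes and SESN2 were named after their values were seen. The methionine sulfoxide reductases MSRA and MSRB2 rose 1.79-fold (6.76e-07) and 1.76-fold (6.45e-09) on day 2, and SESN3, another sestrin, rose 1.48-fold on day 1 (9.48e-05). The medians of the list were -0.04 on day 1 and -0.11 on day 2.

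Of 15 genes of glutathione synthesis and use, 1 rose and 1 fell on day 1, and 3 rose and 5 fell on day 2 (medians 0.06 and -0.08). GGCT, an enzyme of glutathione breakdown, fell 1.35-fold on day 1 (adjusted p = 5.15e-05) and 2.13-fold on day 2 (1.98e-10). CTH, which makes cysteine from cystathionine, fell 1.94-fold (1.90e-07) and GPX8, a peroxidase of the endoplasmic reticulum, 1.5-fold (3.98e-06) on day 2, and CBS, the enzyme before CTH, rose 1.21-fold on day 1 (0.00553). CBS also counts among the 3 that rose on day 2 (log2 change 0.18, adjusted p = 0.0484), a call that 14 of 24 alternatives lost, with adjusted p of 0.0124 to 0.429 over all 24. The vehicle cultures themselves had higher SLC7A11 (log2 change 1.20, adjusted p = 2.21e-05), CTH (1.35, 9.26e-08) and GPX8 (1.03, 1.15e-07) on day 2 than on day 1. SLC7A11 averaged 5.81 ± 0.31 in Dox day 2 and 6.96 ± 0.12 in vehicle day 2, and 5.87 ± 0.19 in Dox day 1 and 5.76 ± 0.19 in vehicle day 1. CTH averaged 7.61 ± 0.12 in Dox day 2 and 8.57 ± 0.05 in vehicle day 2 against 7.25 ± 0.18 in Dox day 1 and 7.22 ± 0.15 in vehicle day 1, and GPX8 averaged 8.75 ± 0.14 in Dox day 2 and 9.34 ± 0.09 in vehicle day 2 against 8.49 ± 0.07 in Dox day 1 and 8.31 ± 0.06 in vehicle day 1 (SD, n = 4 each).

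Of 8 haem and iron genes around HMOX1, 2 rose and 1 fell on day 1, and 3 rose and 2 fell on day 2 (medians 0.03 and 0.02). SLC40A1, the iron exporter ferroportin, was higher by at least 1.83-fold on day 1 (adjusted p = 4.82e-08), when it was above background on 4 of 4 Dox and 0 of 4 vehicle arrays, its log2 change then being 1.21, or 0.46 without background correction. On day 2 it averaged 7.01 ± 0.09 in Dox and 5.30 ± 0.19 in vehicle cultures (SD, n = 4 each), a log2 change of 1.71 (1.35e-10) that was 0.76 without background correction; 4 of 4 Dox and 1 of 4 vehicle arrays were above background, so no fold is given. ALAS1, the first enzyme of haem synthesis, rose 1.6-fold (1.53e-06) and 2.28-fold (3.29e-10), and BLVRA, biliverdin reductase A, fell 1.35-fold on day 2 (0.000243). TFRC, the transferrin receptor, fell 1.13-fold on day 1 (0.0245), a call that was lost with the authors' normalized values (0.0762), in the fit of 8 arrays (0.0675) and without vehicle day 1 replicate 2 (0.0596) or 3 (0.0729) or Dox day 1 replicate 1 (0.0824) or 4 (0.0513).

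Of the 5 superoxide dismutase and catalase genes, 1 rose and 0 fell on day 1, and 2 rose and 1 fell on day 2 (medians 0.11 and 0.0070). CAT, catalase, rose 1.34-fold on day 1 (adjusted p = 0.00216) and 1.53-fold on day 2 (2.41e-05), CCS, the copper chaperone of SOD1, rose 1.55-fold on day 2 (6.43e-06), and SOD2, the mitochondrial manganese enzyme, fell 1.32-fold on day 2 (0.00102). Of 8 genes of NADPH supply, 3 rose and 0 fell on day 1, and 3 rose and 2 fell on day 2 (medians 0.18 and 0.07). IDH1 and IDH2 rose 1.27-fold (0.00270) and 1.26-fold (0.00156) on day 1, NNT, the mitochondrial transhydrogenase, rose 1.80-fold (7.53e-09) and PGLS 1.56-fold (3.73e-06) on day 2, and TKT of the pentose phosphate pathway fell 1.40-fold on day 2 (0.00213). PGD fell 1.21-fold on day 2 (0.0174), and lost that call without vehicle day 2 replicate 4 (0.0631) and without Dox day 2 replicate 3 (0.0570) or 4 (0.0527).

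TXNRD1 needs the machinery that inserts selenocysteine, and of the 7 genes listed under it 2 rose and 2 fell on each day (medians 0.01 and 0.14). PSTK, the kinase that prepares the tRNA for selenocysteine, fell 1.24-fold on day 1 (adjusted p = 0.00375) and 2.24-fold on day 2 (3.46e-10), although the day 1 call was lost with arrays scaled to a common median (0.0611). SEPHS1, a paralog of the selenophosphate synthetase SEPHS2, fell 1.42-fold (1.10e-05) and 1.75-fold (9.80e-09), and whether this touches the supply of selenocysteine was not tested. SEPHS2, the selenophosphate synthetase that is itself a selenoprotein, rose 1.22-fold on day 1 (0.0130) and 1.35-fold on day 2 (0.000257), and the day 1 call was lost without vehicle day 1 replicate 4 (0.0515) and without Dox day 1 replicate 1 (0.0503). EEFSEC, the elongation factor for selenocysteine, rose 1.28-fold (0.00216) and 1.3-fold (0.000586).

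**Figure D4:**
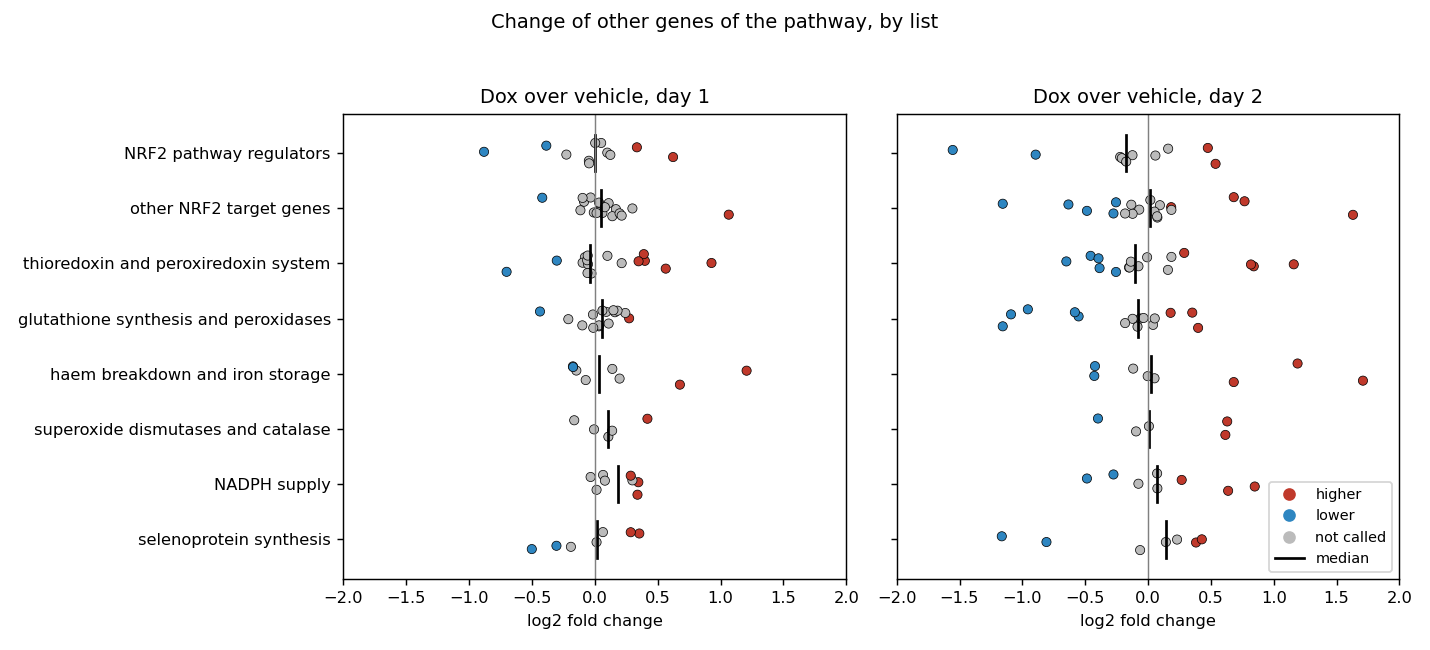
Log2 fold change of Dox over vehicle (x axis) of the genes in 8 pathway lists (rows, members excluded) on day 1 (left) and day 2 (right); colours give the call at an adjusted p of 0.05 and black lines the median of each list. Every list has genes called higher and genes called lower on day 2, and the medians lie between -0.17 and 0.18. Genes not above background on any array are drawn and enter the medians.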

How the data were processed

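RNA of C4-2B/Rx2dox cells was hybridised to Illumina human Ref-8 version 3 BeadChips, 16 arrays in 4 groups of 4 biological replicates. The deposited signal intensities are BeadStudio's mean bead intensities per probe, neither background-corrected nor scaled between arrays, and the deposited detection p-values are the share of negative controls brighter than the probe. The authors also deposited normalized log2 values (model-based background correction, quantile normalization), which served here as an alternative; their median is 4.67 on all arrays and their scale is as the authors describe it. A genome build is not given in the sources used here.

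Intensities were background-corrected with limma's normexp (limma 3.58.1, R 4.3.3; negative controls inferred from the detection p-values, offset 16), quantile-normalized and taken to log2. A group-means model over all 16 arrays with limma's empirical Bayes gave log2 fold changes of Dox over vehicle on each day, their difference between days, and vehicle day 2 over vehicle day 1. Adjusted p-values are Benjamini-Hochberg over 24526 probes, two-sided, with 0.05 as threshold. The script was tested on simulated data. Of the probes, 21834 have 1 gene symbol in the platform annotation and 2692 none. The number of arrays limits the precision. For all 13 member probes the annotated transcript is one that RefSeq lists for that gene.

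The members and lists were chosen with earlier results of these data known. Named genes are the members, RUNX2, up to 4 genes of each list and day with the largest size of change among those called, detected on all 4 arrays of at least 1 group, with Dox and vehicle arrays not overlapping, and the 3 genes correlating best with each detected member. Some genes of the lists are not reported here. Alternatives were another offset, no background correction, the authors' values, median scaling, a filter on dim probes, the 8 arrays compared alone, the replicate number as a block, a per-probe two-way analysis of variance of the same contrasts with an unmoderated spread (the model of the study's methods, but neither its values nor its treatment main effect), another detection threshold, any probe of a gene, and each array left out in turn.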

Additional observations from a re-analysis of the deposited data

Results flagged for a closer look

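In 12 of 188 groups of 4 arrays looked at (6.38%), Dixon's test set 1 array apart, which flags about 1 in 20 by chance, and 5 of these were in members. NFE2L2 read 9.53 in vehicle day 1 replicate 1, against 9.11 to 9.16 on the other arrays of the group. GCLM read 6.33 in Dox day 2 replicate 1 against 6.69 to 6.71, GCLC, which is below background, 4.64 in the same array against 4.41 to 4.42, SRXN1 8.77 in Dox day 1 replicate 4 against 8.88 to 8.89, and HMOX1 7.76 in vehicle day 2 replicate 1 against 7.27 to 7.35. GCLM was lowest in replicate 1 of all 4 groups. The other 7 were NFE2L3 in Dox day 2 replicate 4 (6.51), EPHX1 in vehicle day 2 replicate 4 (9.21), FTL in vehicle day 1 replicate 3 (10.99), SLC40A1 in Dox day 1 replicate 1 (6.52) and vehicle day 1 replicate 1 (5.33), SOD2 in vehicle day 1 replicate 1 (8.13) and SEPHS1 in Dox day 1 replicate 4 (8.43).

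The change with Dox differed between day 2 and day 1, by limma's interaction term, for the leading probes of 3 members: the difference was 0.49 log2 units for KEAP1 (adjusted p = 0.00394), -0.47 for NQO1 (0.00160) and -0.61 for TXNRD1 (0.00293). The second detected probes of KEAP1 (0.28, 0.115) and TXNRD1 (-0.13, 0.788) did not pass this test. Among the 34 other named genes of the lists, which were picked for a large change with Dox on 1 of the days, 18 differed, where 6.26% of all genes passed this test in the higher and 6.77% in the lower direction. The day 2 minus day 1 difference was positive for NNT (0.78, adjusted p = 1.02e-05), EPHX1 (0.57, 0.0143), CCS (0.52, 0.00523), ALAS1 (0.51, 0.00205), SLC40A1 (0.50, 0.0204), FTL (0.49, 0.0130), MSRA (0.44, 0.0311) and MSRB2 (0.43, 0.00262). It was negative for SLC7A11 (-1.27, adjusted p = 0.000208), CTH (-0.99, 4.48e-05), PSTK (-0.86, 9.30e-06), GPX8 (-0.76, 4.95e-05), NFE2L3 (-0.67, 0.00234), GGCT (-0.65, 5.79e-05), MAFG (-0.51, 0.0257), TKT (-0.50, 0.0498), IDH2 (-0.42, 0.00892) and SEPHS1 (-0.31, 0.0315). Since all comparisons of a day share that day's vehicle arrays, these values are not independent of each other. SLC40A1, MAFG and SLC7A11 were below background on some arrays, as given above, so the sizes of their differences are limited by signal. The 18 differences of the other named genes were not repeated under the alternatives.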

How the results depend on the processing

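No alternative reversed the direction of a called value or moved a count of calls by more than 1.5 times, but 5 called values moved by over 1.5 times in fold, all without background correction: SLC40A1 on day 1 (log2 change 0.46 in place of 1.21), and on day 2 SLC40A1 (0.76 in place of 1.71), the second TXNRD1 probe (-0.82 in place of -1.45), NFE2L3 (-0.91 in place of -1.55) and SLC7A11 (-0.56 in place of -1.16). Of 1223 repeats of the 52 values of the member probes, 1202 kept their side of the threshold, 13 lost and 8 gained a call, and of 1632 repeats for other named genes 33 lost one; those in members are given beside the results, apart from vehicle-day changes: under the authors' normalized values KEAP1 lost its call (adjusted p = 0.0559), and with median scaling the second KEAP1 probe (-0.35, 0.0138) and NQO1 (-0.26, 0.0370) gained one. Members called numbered 5 on day 1 and 7 on day 2, against 4 and 6 with median scaling and 4 and 7 with the authors' values, and 4 to 6 and 7 to 7 with 1 array left out. With 1 array left out, probes called ranged from 4116 to 4696 on day 1 (4622 with all arrays), 6708 to 7149 on day 2 (7095), 2397 to 2648 for the difference between days (2680) and 2039 to 2628 in vehicle cultures (2593).

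The replicate numbers are not stated to pair the cultures, and deviations of same-numbered arrays correlated at -0.32 to 0.42, over 0.1 in 6 of 24 pairs. With the replicate block 4523 probes were called on day 1 and 7031 on day 2, 2558 for the difference between days and 2410 in vehicle cultures, and the members called stayed at 5 and 7. With a detection p under 0.05 the second NQO1 probe was above background on 2 of 4 arrays of vehicle day 1 and 1 of 4 of vehicle day 2, and GCLC still on 0. Genes near background, GCLC and MAFG among them, are limited by signal.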
